A study of Mus musculus with 2 samples.

Results

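The miR-34 and miR-449 family comprised 6 microRNA loci, Mir34a, Mir34b, Mir34c, Mir449a, Mir449b and Mir449c, of the 1973 loci with a row in each table. They were chosen by gene symbol, matched through the Ensembl ID, and the rule used no value of theirs, although the family was proposed with earlier results of these data known. The tissue was the midbrain of B6NCrl mouse embryos at embryonic day 13.5, pooled from males and females, and its RNA under 30 nt was sequenced. The samples form 1 group of 2 biological replicates with 1 library each and no contrast between conditions, so the replicates were compared with each other and the family with the other loci. Both replicates carry 1 donor record, and the labels do not say how far their embryos were independent. A p-value below therefore compares 2 libraries and no conditions, and their spread may be partly technical. Whole midbrain was used, so fewer cells of a type and less RNA per cell cannot be told apart.

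MicroRNAs pair with messenger RNAs mainly through the seed near their 5′ end and lower the output of their targets. miR-34a is known as a target of the tumour suppressor p53. The miR-34b/c and miR-449 clusters are best known from multiciliated cells, such as those of the airway, the oviduct, the ependyma and the choroid plexus, where in mouse they promote the formation of motile cilia. Messenger RNA markers of multiciliated cells cannot be read from microRNA tables, so the presence of such cells was not checked.

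The family shares 1 seed, which is why its clusters can be read as sources of related molecules. The RefSeq table for GRCm38.p6 had hairpins for 5 of the 6 loci and 9 of their mature arms. It had no entry for Mir449b or for the 5p arm of miR-34c, so neither enters the comparison below. The 5p arms below are given 5′ to 3′ with the seed, bases 2 to 8, in capitals.
miR-34a-5p: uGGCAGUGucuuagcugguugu
miR-34b-5p: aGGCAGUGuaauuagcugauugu
miR-449a-5p: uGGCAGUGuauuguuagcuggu
miR-449c-5p: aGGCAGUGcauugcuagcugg

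These 4 arms were the only ones with that seed among 1738 mature microRNAs in the table, or 0.230%. Beyond the seed they were not identical. From base 2 onward miR-34a-5p matched miR-449a-5p up to base 9, and miR-34b-5p matched miR-449a-5p up to base 10. Aligned from their first base without gaps, miR-449a-5p and miR-449c-5p were alike at 18 of 21 positions, miR-34a-5p and miR-449a-5p at 15 of 22, and miR-34a-5p and miR-34b-5p at 11 of 22. The last pair differs in length, 22 nt for miR-34a-5p and 23 nt for miR-34b-5p. Without a gap their 3′ parts are shifted against each other, so that count understates their likeness. These counts therefore do not rank the arms by relatedness.

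The 3p arms of the Mir34b/c pair have a seed of their own, again in capitals.
miR-34b-3p: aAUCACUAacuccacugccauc
miR-34c-3p: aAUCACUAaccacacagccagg

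These 2 arms were alike at 17 of 22 positions, and they were the only entries with this seed. The deposited counts are per hairpin and do not tell the arms apart. The hairpin of Mir449a, the member with the most counts, shows what 1 count can stand for, with its 5p arm (bases 16 to 37) and its 3p arm (bases 56 to 77) in capitals.
Mir449a: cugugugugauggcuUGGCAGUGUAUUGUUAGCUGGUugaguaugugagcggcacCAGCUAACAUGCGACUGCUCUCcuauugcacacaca

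The 6 loci lie in 3 places of the genome, given here on mm10 (GRCm38) from GENCODE M21, whose ID versions were the same as in the tables. Mir34a (ENSMUSG00000065493.1) lies on chromosome 4 from 150068454 to 150068555, plus strand, where it overlaps the exon of Gm37795, a gene model of the TEC class that awaits experimental proof. Mir34b (ENSMUSG00000065492.1) lies on chromosome 9 from 51103562 to 51103645, minus strand. Mir34c (ENSMUSG00000065587.1) follows 451 nt downstream, from 51103034 to 51103110. Both lie within an intron of Btg4, an antiproliferative gene of oocytes, on the strand opposite to it.

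The Mir449 loci lie on the plus strand of chromosome 13 in an intron of Cdc20b, a gene linked to centriole amplification in multiciliated cells. Mir449c (ENSMUSG00000076146.1) begins 872 nt after the annotated start of Cdc20b and runs from 113035983 to 113036091. Mir449b (ENSMUSG00000078027.1) follows after 1327 nt, from 113037419 to 113037498. Mir449a (ENSMUSG00000065575.1) follows Mir449b after only 35 nt, from 113037534 to 113037624. Across the 2202 hairpins of the annotation, the longest exact run that a member shared with any other hairpin was 14 nt, in Mir449a. No member thus had a near-identical copy in that set.

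**Figure D1:**
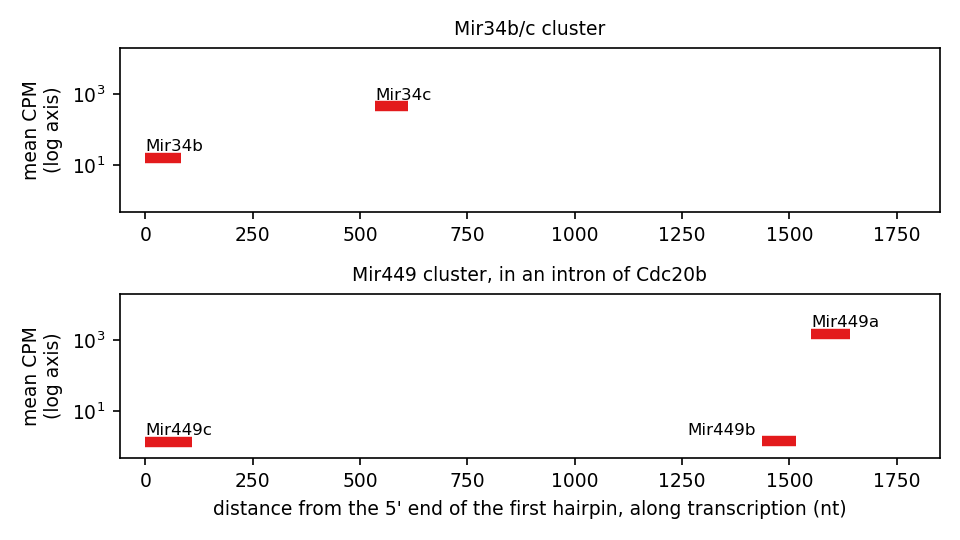
Position of the hairpins along the Mir34b/c and Mir449 clusters (x axis, nt from the 5′ end of the first hairpin) against their mean CPM over both replicates (y axis, log scale). Each block spans 1 hairpin. Mir449b and Mir449a are 35 nt apart, with mean levels of 1.49 and 1512 CPM.

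Replicate 1 held 5093743 counts on the strand of a gene and replicate 2 held 2935841. Levels are these counts scaled to CPM, per 1000000 counts of the library. The limit that a count of 0 allows, 3 counts, corresponds to 0.589 CPM in replicate 1 and 1.02 CPM in replicate 2. The RNA was of mature microRNA size, so CPM was not divided by hairpin length. All intervals are 95% exact and cover counting error only. Of the neural list, 12 of 13 loci had a row and all 12 had counts, summing to 31408 CPM in replicate 1 and 29299 CPM in replicate 2. Most of that sum came from Mir135b (11427 and 10751 CPM), Mir137 (9265 and 6397 CPM) and Mir92b (8440 and 9987 CPM). Mir124a-1, Mir124a-3 and Mir9-2 had at most 12 counts in either library, and Mir124a-2 had 9.42 and 9.20 CPM. Multimapping reads, 34.4% in replicate 1 and 37.7% in replicate 2, entered no gene row. Loci that share a mature sequence with another locus can thus be undercounted, which may hold for the numbered Mir124a and Mir9 loci. Low counts there do not show absence, and the neural sum may be too low. Loci of the Hox clusters, genes of the hindbrain and spinal cord, summed to 637 and 723 CPM.

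Mir449a held the most counts of the members in both libraries, followed by Mir34c, Mir34a and Mir34b, while Mir449b and Mir449c were near the detection limit. Levels here are counts, which were not calibrated to molecules of each microRNA. The family held 6974 counts in replicate 1, or 0.137% of the library (0.134 to 0.140), and 7946 in replicate 2, or 0.271% (0.265 to 0.277). Its mean level was 2038 ± 946 CPM (SD, n = 2). Of the 6 loci, Mir449a differed most in CPM between the libraries.

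Mir449a, processed from the Cdc20b intron, had 4373 counts (859 CPM, interval 833 to 884) in replicate 1 and 6360 counts (2166 CPM, interval 2113 to 2220) in replicate 2. Its mean was 1512 ± 925 CPM (SD, n = 2), which ranked 76 among all 1973 loci, with ranks of 97 and 66 in the single libraries. Only 719 of the 1973 loci had any same-strand count in the 2 libraries together, so all ranks given here are best read against 719. Mir34c, whose hairpin lies downstream of Mir34b, had 2230 counts (438 CPM, interval 420 to 456) and 1376 counts (469 CPM, interval 444 to 494). Its mean of 453 ± 21.8 CPM ranked 130. The libraries thus lay close together for Mir34c and far apart for Mir449a.

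Mir34a, the member tied to p53, had 293 counts (57.5 CPM) in replicate 1 and 141 counts (48.0 CPM) in replicate 2, a mean of 52.8 ± 6.71 CPM at rank 234. Mir34b had 71 counts (13.9 CPM) and 56 counts (19.1 CPM), a mean of 16.5 ± 3.63 CPM at rank 294. The values of these 4 loci did not overlap: both libraries placed Mir449a above Mir34c, Mir34c above Mir34a, and Mir34a above Mir34b.

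Mir449b had 3 counts (0.589 CPM) in replicate 1 and 7 counts (2.38 CPM) in replicate 2. Mir449c had 4 counts (0.785 CPM) and 6 counts (2.04 CPM). The order of these 2 loci differed between the libraries, and their counting intervals overlapped in each. In replicate 1 the count of Mir449b equalled the limit of 3 counts, so no more than a trace was detectable at this depth.

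**Figure D2:**
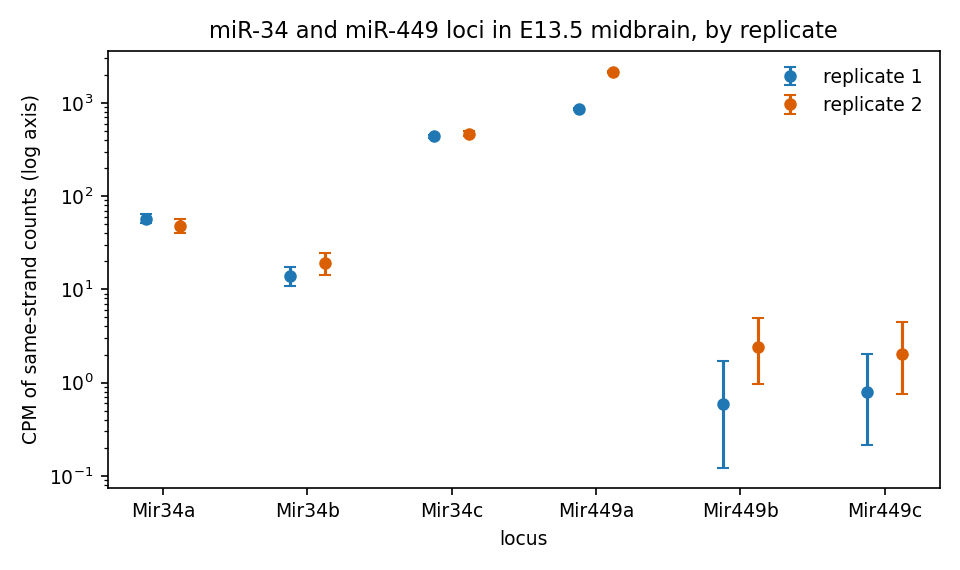
Level of each locus in each replicate, as CPM of same-strand counts on a log axis, with 95% exact counting intervals as bars. Mir449a stood at 859 CPM in replicate 1 and 2166 CPM in replicate 2, whereas the points of Mir34c, at 438 and 469 CPM, nearly coincide.

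Hairpins of 1 cluster were counted at very different levels. Mir34c held 31.4 times the counts of Mir34b in replicate 1 (24.8 to 40.4) and 24.6 times in replicate 2 (18.8 to 32.7). Mir449a held 1458 times the counts of Mir449b in replicate 1 (498 to 7071) and 909 times in replicate 2 (441 to 2261). Against Mir449c the factors were 1093 (427 to 4014) and 1060 (487 to 2890). Such ratios within a library need no scaling between libraries, and the intervals of replicate 1 and replicate 2 overlapped for all 3 pairs.

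Nearly all counts lay on the strand of the locus. The column for the opposite strand held 0 counts at every member in replicate 1. In replicate 2 it held 2 counts at Mir34b and 0 at the other 5 loci.

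The clusters were then compared by their ratio of replicate 1 to replicate 2, after scaling of the libraries by TMM, a trimmed mean of log ratios. The Mir449 cluster was 2.64-fold higher in replicate 2 (2.54 to 2.75), with 4380 counts in replicate 1 and 6373 in replicate 2. The Mir34b/c cluster, with 2301 and 1432 counts, was 1.13-fold higher in replicate 2 (1.06 to 1.21). Mir34a had a log2 ratio of 0.19, whose interval, -0.10 to 0.49, included 0. The sums were given no test, because results of these data were known when the family was proposed.

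By locus, the two-sided exact conditional binomial test with Benjamini-Hochberg adjustment called 2 of the 6 members, both higher in replicate 2. Over all 466 loci with at least 10 counts the same test called 38.0%, with 18.7% higher in replicate 1 and 19.3% higher in replicate 2, so a count of 2 in 6 is near the background. With scaling by total counts only, 61.9% of the called loci were higher in replicate 1, against 49.2% with TMM. The median log2 ratio was -0.77 over the 6 members and -0.0041 over all loci tested. The members' median is the midpoint of Mir34b and Mir449c, and Mir449c was near the detection limit. With a pseudocount of 5 CPM the members' median was -0.35, against -0.0035 over all loci tested. A ratio below 0 was found in 5 of 6 members, against 235 of 466 loci tested.

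Mir449a was called with a log2 ratio of -1.40 (-1.46 to -1.35), a 2.64-fold higher level in replicate 2, and an adjusted exact p that was returned as 0. It was called, between -1.405 and -1.335, under each of the 6 alternatives run for it. Of these, the pseudocount of 5 CPM enters the log2 ratio but not the test, so it could not change the call. Of the 205 loci with a mean of at least 100 CPM, 2 had a ratio as far from 0, Mir449a itself and Mir375, and the SD of the log2 ratio over these loci was 0.31. Mir449a thus lay farther from 0 than the usual spread between these 2 libraries.

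Mir34c was called with a log2 ratio of -0.17 (-0.26 to -0.067) and an adjusted exact p of 0.00303. The difference was 1.12-fold, and the ratios of 94 of the 205 loci of at least 100 CPM were as far from 0. With total counts only it did not pass, at a log2 ratio of -0.098 and an adjusted exact p of 0.107. The call of Mir34c thus depended on how the libraries were scaled.

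Mir34a had a log2 ratio of 0.19 with an adjusted exact p of 0.363, and Mir34b one of -0.50 (-1.05 to 0.013) with an adjusted exact p of 0.116. When replicate 1 was thinned to the depth of replicate 2, in 1 random draw that left Mir34b 34 counts, Mir34b passed at -0.76 with an adjusted exact p of 0.0321. The draw adds sampling error of its own, so this pass does not show a difference that the full counts missed. Mir449b and Mir449c lay at -1.45 and -1.03 with a pseudocount of 0.5 CPM and at -0.42 and -0.30 with 5 CPM. Their adjusted exact p-values were 0.0947 and 0.326, and without a pseudocount their intervals ran from -4.67 to 0.047 and from -3.72 to 0.63. At these depths a difference of either from Mir449a was not detectable.

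**Figure D3:**
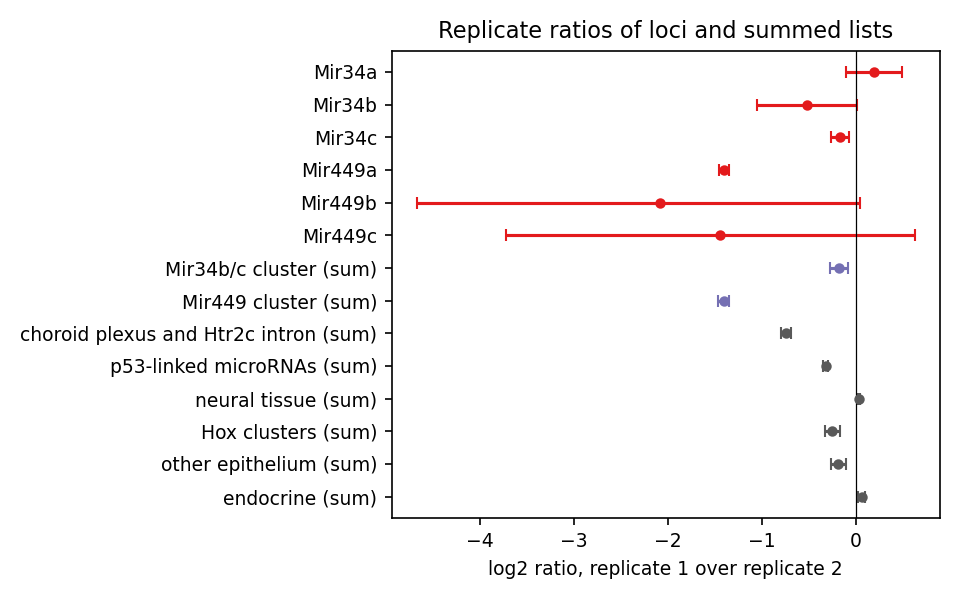
Log2 ratio of replicate 1 over replicate 2 (x axis, TMM-scaled, no pseudocount) for each member, for the 2 cluster sums and for the sums of 6 other lists, with 95% exact counting intervals as bars. The interval of the Mir449 cluster, -1.46 to -1.35, lies apart from that of the Mir34b/c cluster, -0.27 to -0.081.

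The clusters differed from each other in this ratio beyond counting error. The Mir449 cluster held 1.90 times the counts of the Mir34b/c cluster in replicate 1 (1.81 to 2.00) and 4.45 times in replicate 2 (4.20 to 4.72). The quotient of these factors, replicate 2 over replicate 1, was 2.34 (2.16 to 2.53). Mir449a over Mir34a gave 14.9 in replicate 1 and 45.1 in replicate 2, a quotient of 3.02 (2.45 to 3.74). Library scaling does not enter these values.

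Within the Mir34 genes the quotients were smaller. Mir34c over Mir34a gave 7.61 and 9.76, a quotient of 1.28 (1.03 to 1.60). Mir34b over Mir34a gave 0.242 and 0.397, a quotient of 1.64 (1.07 to 2.50). Mir34c over Mir34b gave a quotient of 0.782 (0.540 to 1.14), whose interval included 1. As shares of the family, the Mir449 cluster took 62.8% (61.7 to 63.9) in replicate 1 and 80.2% (79.3 to 81.1) in replicate 2. The Mir34b/c cluster took 33.0% and 18.0%, and Mir34a took 4.20% and 1.77%.

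**Figure D4:**
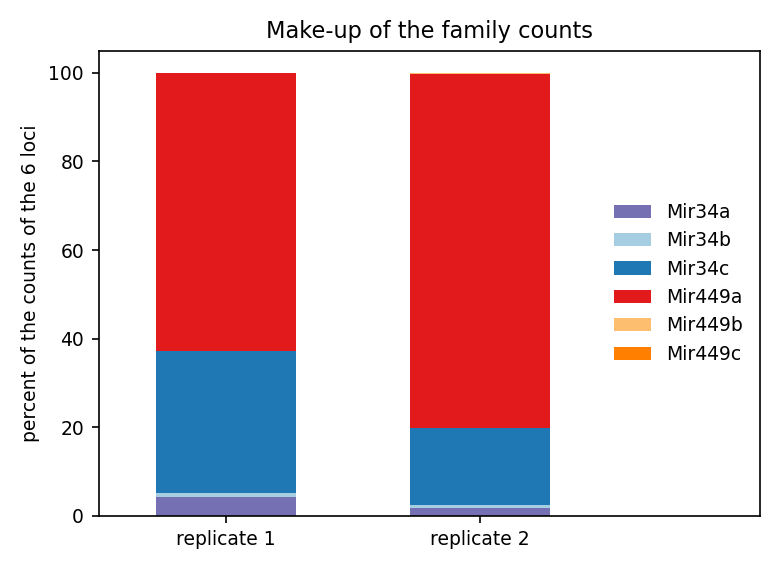
Share of each locus in the summed counts of the 6 loci (y axis, percent) in each replicate (x axis). Mir449a made up 62.7% of the bar of replicate 1 and 80.0% of that of replicate 2. Mir449b and Mir449c are too thin to see.

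The loci of at least 100 CPM whose ratio was nearest to that of Mir449a were Mir375, Mir1298, Mir195a, Mir223 and Mir204, all higher in replicate 2. Likeness here is the distance between log2 ratios over 1 pair of libraries, which the 2 libraries' other differences enter too. Mir375, a microRNA of endocrine cells, had 523 and 1365 CPM, a log2 ratio of -1.45. Mir1298, from an intron of the serotonin receptor gene Htr2c, had 410 and 802 CPM, a log2 ratio of -1.03. The next neighbours were clearly farther away. Mir195a, of the miR-15/16 family, had 415 and 617 CPM (-0.64), and the myeloid Mir223 had 144 and 199.9 CPM (-0.54). Mir204, of choroid plexus and pigment epithelium, had 736 and 1018 CPM (-0.54).

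Loci of the list for choroid plexus, an epithelium that carries motile cilia, and for the Htr2c intron were mostly called in the same direction as Mir449a. All 7 of its loci had counts, and their sum was 1239 CPM in replicate 1 and 1977 CPM in replicate 2, 1.67-fold higher in replicate 2. Of its 6 tested loci, 5 were called higher in replicate 2 and 1 did not pass, against the 19.3% of all loci called in that direction. The count was 4 with total counts only, with thinning and with no filter, and 4 of 5 tested with a minimum of 50 counts. Apart from Mir204 and Mir211, the loci of this list come from the Htr2c intron, so their calls cannot be taken as independent. Outside that intron, Mir204 was called with TMM scaling and Mir211 was not.

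By locus, Mir448 had 52.0 and 88.9 CPM, Mir1264 had 24.3 and 43.9 CPM, and Mir1912 had 0.982 and 3.41 CPM. Mir211, at 16.1 and 20.1 CPM, did not pass, and Mir764 had 1 count in each library. The log2 ratio of the summed list was -0.74 (-0.79 to -0.69), smaller in size than that of Mir449a. Whether more choroid plexus tissue in 1 pool had a part in the ratio of Mir449a was not tested.

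**Figure D5:**
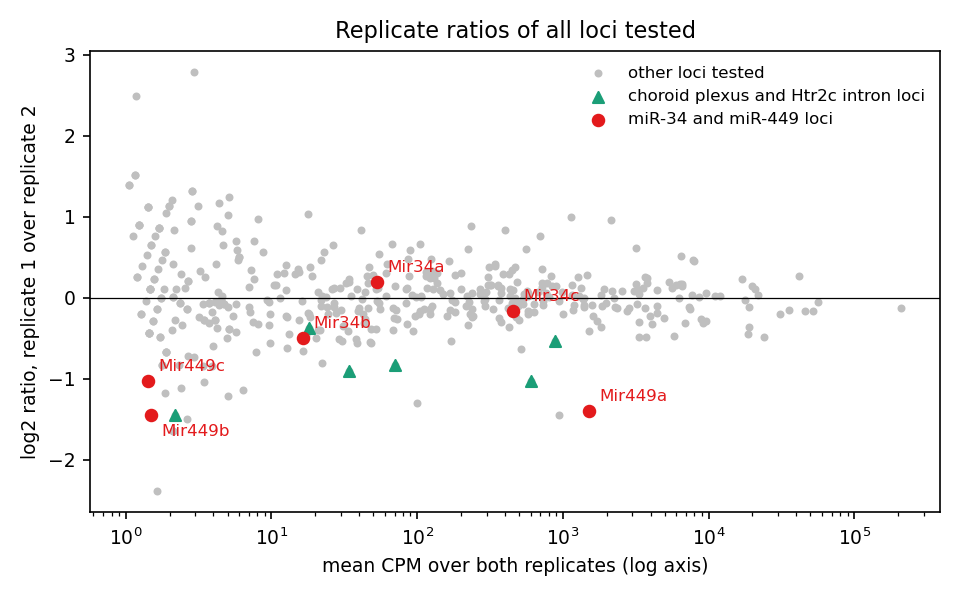
Log2 ratio of replicate 1 over replicate 2 (y axis, pseudocount of 0.5 CPM) against mean CPM (x axis, log scale) for the 466 loci tested. Red circles are the 6 members and green triangles the 6 tested choroid plexus and Htr2c intron loci. All 6 triangles and 5 of the 6 red circles lie below 0.

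The other lists held loci called in both directions, or mostly loci that did not pass. Of all 466 loci tested, 38.0% were called, 18.7% higher in replicate 1 and 19.3% higher in replicate 2. A majority not passing is thus also the background and sets no list apart. Of the p53-linked microRNAs other than miR-34, 6 of 8 were tested, with Mir107 higher in replicate 1, Mir143 and Mir145a higher in replicate 2, and 3 not passing. Mir145b had no count in either library. Mir143, a microRNA of smooth muscle and other mesenchyme, was at 4991 and 6626 CPM, and its cluster partner Mir145a at 60.1 and 76.0 CPM. Mir107 was at 2284 and 2054 CPM. Mir192, at 91.3 and 103 CPM, and Mir194-2, at 66.4 and 69.5 CPM, have p53-induced precursors in human cells, and neither passed. The log2 ratio of the summed p53-linked list was -0.32, a sum in which Mir143 held 25423 of 38181 counts in replicate 1 and 19453 of 26220 in replicate 2. The median over its 6 tested loci was -0.18. Of 7 other epithelial loci, of the miR-200 family with Mir203 and Mir205, 2 were called higher in replicate 2 (Mir429 and Mir203) and 5 did not pass. This count was 1 with total counts only and with thinning.

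Of the 4 tested Hox cluster loci, 3 did not pass and Mir10a was called higher in replicate 2. The neural list had 2 loci called in each direction beside 8 that did not pass, and with total counts only or no filter 5 of its loci were called higher in replicate 1. The endocrine list was split, with Mir375 higher in replicate 2 but Mir7-1, Mir7-2 and Mir7b higher in replicate 1.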

How the data were processed

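The authors deposited 1 table of raw read counts per sample, on mm10 with GENCODE annotation M4, per the accompanying notes. Which aligner, trimming and read filters were used is not stated in the labels or notes read here. Of the 3 count columns, the first was the sum of the others in every gene row, and the second was read as counts on the strand of the gene, an inference from the values. Summary rows that name no gene entered neither the library sizes nor any test (unmapped reads 16.1% and 15.7%, multimapping reads 34.4% and 37.7%, unassigned reads 3.79% and 3.80%).

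The libraries differed beyond counting error at 38.0% of the loci tested and were counted as 2 samples. CPM used all gene rows. Names came from GENCODE M21 (1894 of 1973 IDs matched). A quasi-likelihood contrast needs more than 1 group, so edgeR 4.0.16 gave no test (R 4.3.3). It was used for TMM factors and for a common coefficient of variation between the libraries, 0.158, which entered no test. Loci whose counts summed to 10 or more over the pair of libraries entered a two-sided exact conditional binomial test per locus. It was adjusted by Benjamini-Hochberg over all of them at 0.05 (scipy 1.17.1, Python 3.11.15). On simulated counts with counting error and no other spread, it called 67.7% of loci changed 1.5-fold, 74.2% of those changed 2-fold and 2.15% of unchanged loci. The simulation cannot show how the test behaves here, where the libraries differ beyond counting error. Log2 ratios carry a pseudocount of 0.5 CPM unless stated. The alternatives tried were total counts only, size factors from DESeq2 1.42.0, counts without regard to strand, thinning, other filters (none, or at least 50 counts), a pseudocount of 5 CPM, multimapping reads in the denominator and each replicate left out.

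The members and the 6 lists were chosen with earlier results of these data known. The rule for named loci gave all members, the 5 loci of at least 100 CPM with a ratio nearest to that of Mir449a, and the loci of the lists.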

Additional observations from a re-analysis of the deposited data

How the results depend on the processing

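Across the alternatives, the replicate ratios of Mir34a, Mir449a, Mir449b and Mir449c kept their direction and their side of the threshold. The pseudocount of 5 CPM could change neither, since it does not enter the test and keeps the sign of a ratio. With total counts only, the call of Mir34c ended (log2 ratio -0.098), and the Mir449 cluster lay at -1.34, outside its counting interval; the scaling shifted the median locus by 0.066 on the log2 scale. With replicate 1 thinned in 1 random draw, which adds sampling error of its own, Mir34b passed (-0.76). Mir449b and Mir449c then fell under 10 counts and gave no value. The Mir34b/c cluster lay between -0.18 and -0.11 under all 4 of its alternatives. Between 158 and 183 loci were called under the 6 alternatives, against 177. The share of counts held by the family was 0.204% over both replicates, 0.271% without replicate 1 and 0.137% without replicate 2. It was 0.199% with counts without regard to strand and 0.111% with multimapping reads in the denominator. A replicate ratio cannot be had with either replicate left out. No paired analysis was possible because the series holds 1 group. Depth limits Mir449b and Mir449c, with 3 to 7 counts a library.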
